A study of Mus musculus with 17 samples.

Results

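The transcripts described here come from 38 genes of glycolysis and of the cellular response to low oxygen, chosen by symbol out of 23420 genes counted in cultured mouse mesenchymal stem cells and tumour lines that carry mutant p53. All 38 symbols had a row in the count table, and all 38 passed the filter on low counts in each of the 4 fits. By role they are 2 glucose transporters, 9 enzymes of upper glycolysis, 6 enzymes of lower glycolysis, 5 genes of lactate and pyruvate fate, 2 enzymes that set the level of fructose 2,6-bisphosphate, 3 genes of the oxygen-sensing pathway and 11 other targets of that pathway.

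Glycolysis splits glucose into pyruvate, which is either reduced to lactate and exported or oxidised in mitochondria. When oxygen is scarce, prolyl hydroxylases stop marking the transcription factor subunit HIF-1α for destruction, and the stabilised factor binds a short core motif in DNA and raises transcription of glucose transporters, glycolytic enzymes, lactate exporters and genes of blood vessel growth, acid balance and mitophagy. Tumour cells often run glycolysis with oxygen present, and p53 is known to restrain several of its steps.

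The groups were tumour lines of the second generation (TL2, 4 libraries), tumour lines of the first generation (TL1, 6 libraries), bone marrow mesenchymal stem cells (MSC, 3 libraries), and, from first-generation tumour lines, clones labelled p53 KO (KO clones, 2 libraries) and clones labelled p53 Mut (Mut clones, 2 libraries). All cells derive from C57BL/6 mice with the R172H knock-in allele of p53. No group of p53 wild-type cells entered any comparison, and cells were between passage 2 and 20 without any treatment, low oxygen included. The tumour-derived lines were kept on plates coated with agar, in medium with leukemia inhibitory factor and sodium pyruvate, whereas MSC grew in MSC medium, so tumour origin and culture cannot be told apart. The tumour lines are also labelled with a number from 1 to 3 whose meaning is not stated, the parent line of each clone is not named, and each clone library stands for a clone, not for an animal, so that differences of parent line or of single clones cannot be told apart from the knockout. Whether replicate libraries stem from different mice or cultures is not labelled, so p-values measure no more than the spread between these libraries.

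The libraries held 12215025 to 15962341 counts. The ribosomal transcript Rn45s took 0.476 to 1.59% of counts in 16 libraries and 4.14% in KO clone 2. Levels are CPM, counts scaled to a common library size. Summed CPM of 12 marrow stromal markers were 1719 to 2896 in tumour lines, 5435 to 9029 in MSC, 3080 to 3381 in KO clones and 1515 to 1566 in Mut clones. Of the 12, 3 fell in tumour lines and 0 rose, with 6 fitted changes above 0 and 6 below, and the sum in MSC was mostly Cxcl12, at 166 CPM on average in tumour lines and 4029 CPM in MSC. Of the defining stromal markers, Thy1 averaged 0.713 CPM in tumour lines and 44.7 CPM in MSC, and Eng averaged 4.60 CPM in tumour lines and 73.9 CPM in MSC, whereas Nt5e averaged 17.5 CPM in tumour lines and 1.79 CPM in MSC without passing the test. Summed macrophage and blood markers, 10 genes, were 15.1 to 63.2 CPM in tumour lines, 11.1 to 35.6 CPM in MSC, 7.01 to 7.33 CPM in KO clones and 13.1 to 18.1 CPM in Mut clones, and 6 endothelial markers summed to at most 3.44 CPM in any library. How far the change in stromal markers bears on the members was not tested. In bulk RNA, fewer cells of a type and less RNA per cell cannot be told apart.

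The core of the DNA element bound by HIF is ACGTG, which reads CACGT on the opposite strand, and the palindrome CACGTG contains both and is also the E-box bound by other factors. RefSeq promoter windows of GRCm38.p6 were found for 35 of the 38 members. Of these, 21 (60.0%) held ACGTG on either strand within the 250 bases before at least 1 of their starts. Of all 27025 genes with such a window, 18.5% did. Counted by window, which allows for members with several starts, the shares were 49.0% of 49 member windows and 16.6% of all 32851. All genes were not matched to the members for base composition or expression, and no test was made. The windows are shown for the called members of the comparison of tumour lines with MSC whose 250 bases touch no annotated exon. Ldha has a further window that meets this rule and is not shown. The windows show the element beside genes that moved in different directions. Capitals mark every ACGTG or CACGT.
Ldha, chr7:46845554-46845803, + strand: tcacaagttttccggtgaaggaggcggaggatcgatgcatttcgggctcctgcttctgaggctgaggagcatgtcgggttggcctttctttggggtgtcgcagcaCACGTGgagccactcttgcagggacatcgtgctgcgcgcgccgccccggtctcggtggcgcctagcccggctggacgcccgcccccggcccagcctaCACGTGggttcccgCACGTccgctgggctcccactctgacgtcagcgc
Slc16a1, chr3:104638414-104638663, + strand: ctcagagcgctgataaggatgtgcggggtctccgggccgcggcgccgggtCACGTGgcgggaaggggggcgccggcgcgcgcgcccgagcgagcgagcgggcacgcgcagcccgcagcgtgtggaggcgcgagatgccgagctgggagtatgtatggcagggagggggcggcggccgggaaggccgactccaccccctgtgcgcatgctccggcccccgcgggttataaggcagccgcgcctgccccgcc
P4ha2, chr11:54100674-54100923, + strand: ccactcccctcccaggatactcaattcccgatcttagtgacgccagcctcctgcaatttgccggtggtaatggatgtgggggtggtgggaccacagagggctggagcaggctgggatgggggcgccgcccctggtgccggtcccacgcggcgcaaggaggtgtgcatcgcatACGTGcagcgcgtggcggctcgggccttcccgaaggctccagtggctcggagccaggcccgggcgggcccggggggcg
Adm, chr7:110627407-110627656, + strand: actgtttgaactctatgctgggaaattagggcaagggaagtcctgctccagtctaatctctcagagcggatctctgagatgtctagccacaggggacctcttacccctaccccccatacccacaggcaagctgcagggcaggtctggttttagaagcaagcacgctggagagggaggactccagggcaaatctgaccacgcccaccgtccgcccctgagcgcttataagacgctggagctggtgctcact
The Ldha window holds 2 CACGTG palindromes, beginning 145 and 48 bases before the start, and a further CACGT 34 bases before the start. The window of a second Ldha start, not shown, holds none. Bases just after that second start matched an annotated Ldha transcript, whereas those after the start of the shown window did not. Slc16a1 has 1 CACGTG beginning 200 bases before its start, P4ha2 has 1 ACGTG 78 bases before its start, and the Adm window has no match. These matches are descriptions of the letters and not measured binding sites.

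**Figure D1:**
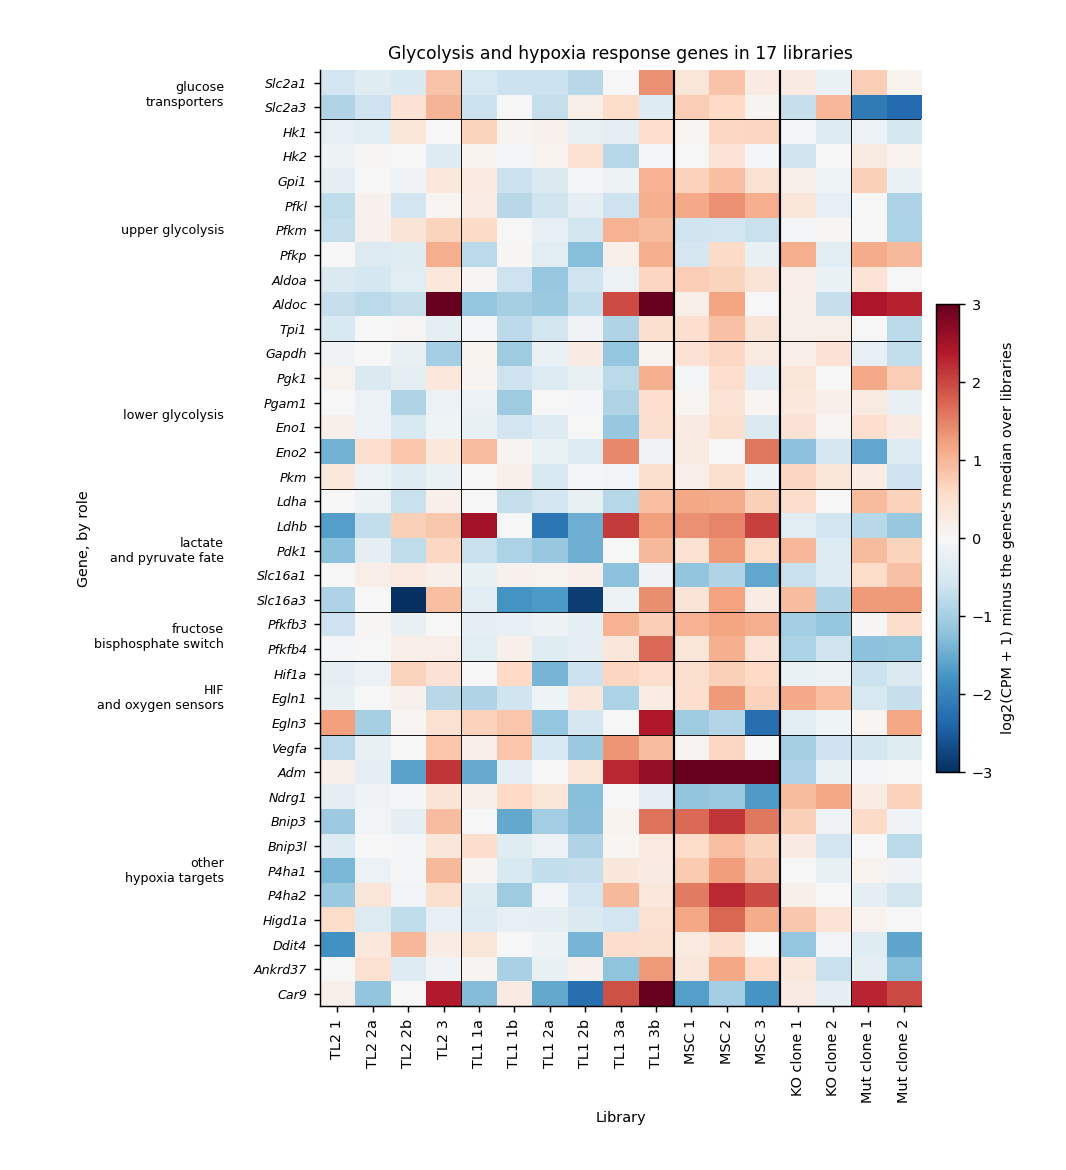
Heat map of the 38 members (rows, grouped by role) in the 17 libraries (columns), coloured by log2(CPM + 1) minus the gene's median over all libraries, with the scale held within 3 units of the median. The columns of TL1 3b, TL2 3 and the 3 MSC libraries are mostly above the median, and Aldoc and Car9 stand out in the lines of number 3 and in the Mut clones.

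The first comparison asked how tumour lines differ from the stem cells they were derived from. Of the 38 members, 2 rose in tumour lines and 7 fell, with edgeR's quasi-likelihood test and Benjamini-Hochberg adjustment over all 13262 genes at 0.05. An unadjusted p under 0.05 was found for 18 members, against 3507 of the 13262 genes. Over all genes tested, 3.86% rose and 4.79% fell. The fitted change was negative for 30 members and positive for 8, with a median of -0.46 on the log2 scale against 0.10 over all genes. No member was above all MSC libraries in every tumour line, while 6 were below all of them (Gapdh, Egln1, Adm, Bnip3l, P4ha2 and Higd1a). Among all genes tested 5.04% were higher and 7.53% lower in every tumour line. Scaling by library totals alone moved the split of all called genes to 680 that rose and 547 that fell, against 512 and 635 with the main scaling, and left 7 members called.

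**Figure D2:**
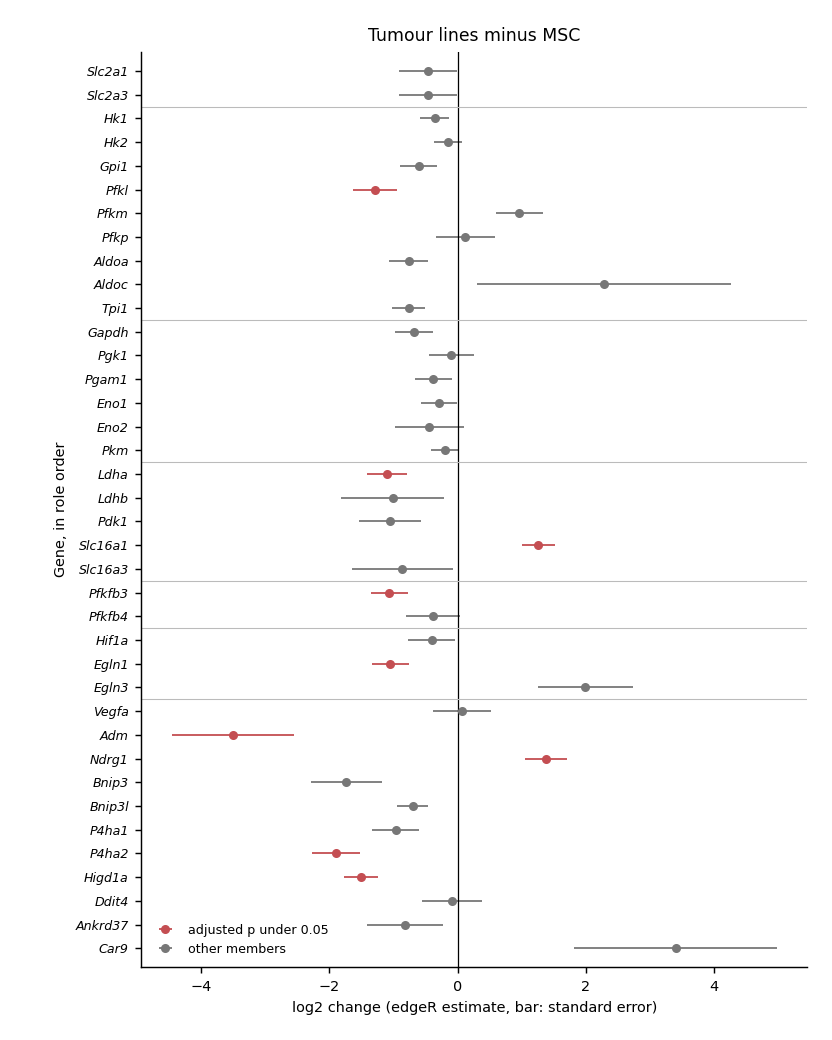
Log2 change of each member, tumour lines minus MSC (points, edgeR estimate from 13 libraries, with bars of 1 standard error), in role order. Red points passed an adjusted p of 0.05: Slc16a1 and Ndrg1 lie right of 0 and 7 members lie left of it, with Adm the farthest at -3.51.

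Neither glucose transporter passed the test. Slc2a1, the main transporter of basal glucose uptake, had 76.9, 98.7 and 356 CPM as the lowest, median and highest of the tumour lines, against 175, 247 and 162 CPM in MSC. Slc2a3, a high-affinity transporter typical of neurons, ran at 3.22, 5.91 and 14.9 CPM in tumour lines, against 11.96, 10.82 and 7.29 CPM in MSC. For both the groups overlapped, and the log2 changes were -0.46 (SE 0.45) and -0.46 (SE 0.45).

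In upper glycolysis the liver-type phosphofructokinase gene Pfkl (chr10:77986947-78009807) fell, and it was the only one of the 9 genes called. Its level was 102, 134 and 389 CPM as the lowest, median and highest of the tumour lines, against 402, 467 and 386 CPM in MSC. Only TL1 3b, at 389 CPM, reached the MSC range. The log2 change was -1.29 (SE 0.34, adjusted p = 0.0355), or 2.45-fold lower. The muscle-type Pfkm, which encodes another subunit of this committed step, ran the other way without passing the test. It had 45.2, 90.3 and 157 CPM in tumour lines, against 49.4, 50.4 and 46.9 CPM in MSC (log2 change 0.97, SE 0.37, adjusted p = 0.116). Per kilobase of exon, Pfkl supplied 24.8 to 55.4% of the phosphofructokinase transcripts in tumour lines and 74.5 to 76.1% in MSC, and Pfkm 37.9 to 66.0% in tumour lines and 16.1 to 18.7% in MSC. The shares of Pfkl and Pfkm did not overlap between the groups, and no test was made of them. Pfkp, the remaining subunit gene, averaged 84.8 CPM in tumour lines and 80.8 CPM in MSC. Its shares were 4.87 to 16.7% and 5.21 to 9.45%. The shares rest on all annotated exons of a gene joined, 13401 bases for Pfkp, 6675 for Pfkl and 3340 for Pfkm. They are therefore rough where the transcripts in use are shorter. Aldoc, the brain-type aldolase, had the widest range of these enzymes, 0.299 to 84.3 CPM over the tumour lines, against 2.26, 5.57 and 1.90 CPM in MSC, and is described with the line numbers. The other 6 genes (Hk1, Hk2, Gpi1, Pfkp, Aldoa and Tpi1) had log2 changes between -0.76 and 0.12, with adjusted p from 0.0804 for Tpi1 upward.

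None of the 6 lower glycolysis genes passed the test, and all 6 fitted changes were negative. Gapdh, which oxidises glyceraldehyde 3-phosphate, had 948, 1906 and 2521 CPM in tumour lines, against 2895, 3300 and 2588 CPM in MSC. Every tumour line lay under every MSC library, but the log2 change of -0.68 (SE 0.30) had an adjusted p of 0.166. Eno2, the neuronal enolase, varied most over the tumour lines, from 2.82 to 26.9 CPM, against 11.3, 9.21 and 29.7 CPM in MSC. Pgk1, Pgam1, Eno1 and Pkm had log2 changes from -0.38 to -0.10. Several of these genes have near-identical copies, so that their levels are uncertain: 81.6% of the 60-base windows of Gapdh transcripts, 69.5% of Eno1, 67.8% of Pgk1, 41.1% of Pgam1 and 28.0% of Pkm also occur in transcripts of other genes. The 17 glycolytic enzymes among the members, from the hexokinases to lactate dehydrogenase, together took 0.945 to 2.04% of counts in tumour lines and 1.38 to 1.87% in MSC. Enzymes outside the members, such as Eno3, which rose in tumour lines, are not in this sum.

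At the fate of pyruvate, the gene of a lactate-producing subunit fell and the gene of a lactate carrier rose. Ldha (chr7:46842274-46855627), the subunit that favours reduction of pyruvate to lactate, had 673, 1073 and 2269 CPM in tumour lines, against 2732, 2629 and 2008 CPM in MSC. All tumour lines but TL1 3b were below the MSC range, and the log2 change was -1.10 (SE 0.31, adjusted p = 0.0451), or 2.14-fold lower. Slc16a1 (chr3:104638664-104658462), which encodes the proton-coupled monocarboxylate transporter MCT1, had 63.4, 163 and 184 CPM in tumour lines, against 65.6, 79.7 and 50.2 CPM in MSC. All tumour lines but TL1 3a were above the MSC range, and the log2 change was 1.26 (SE 0.26, adjusted p = 0.0121), or 2.40-fold higher. Slc16a3, the lactate exporter MCT4, ranged from 23.7 to 584 CPM around a median of 148 CPM in tumour lines, against 292, 518 and 260 CPM in MSC, and did not pass the test (log2 change -0.86, SE 0.79, adjusted p = 0.511). Of the pair per kilobase of exon, Slc16a1 supplied 22.4 to 90.3% in tumour lines and 15.6 to 21.3% in MSC. Ldhb, the subunit that favours the reverse reaction, had the widest range of this role, 3.20 to 109 CPM in tumour lines, against 49.2, 52.5 and 79.4 CPM in MSC. Pdk1, the kinase that switches off pyruvate dehydrogenase, had 26.4, 45.4 and 149 CPM in tumour lines, against 104, 185 and 111 CPM in MSC (log2 change -1.05, SE 0.48, adjusted p = 0.182). With line number as a block in the edgeR fit Pdk1 was called, at an adjusted p of 0.0364. That block also matches MSC to tumour lines by number, a pairing that the data did not bear out.

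Pfkfb3 (chr2:11471430-11554071), which makes the phosphofructokinase activator fructose 2,6-bisphosphate, fell. Its level was 18.3, 25.1 and 60.5 CPM as the lowest, median and highest of the tumour lines, against 60.3, 67.2 and 62.1 CPM in MSC. Only TL1 3a touched the MSC range, and the log2 change was -1.06 (SE 0.29, adjusted p = 0.0400), or 2.09-fold lower. Its paralog Pfkfb4 had 7.34, 10.4 and 33.8 CPM in tumour lines, against 12.9, 21.4 and 13.3 CPM in MSC, with overlap and a log2 change of -0.39 (SE 0.42).

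Of the oxygen-sensing genes, Egln1 (chr8:124908587-124949254), which encodes PHD2, the main prolyl hydroxylase acting on HIF-1α, fell. It had 59.1, 102 and 145 CPM in tumour lines, against 162, 279 and 185 CPM in MSC. No tumour line reached an MSC library, and the log2 change was -1.05 (SE 0.29, adjusted p = 0.0414), or 2.07-fold lower. Egln3, which encodes the hypoxia-inducible hydroxylase PHD3, had 26.4, 73.2 and 326 CPM in tumour lines, against 28.3, 32.6 and 11.9 CPM in MSC, without passing the test (log2 change 1.99, SE 0.75, adjusted p = 0.112). Per kilobase of exon, Egln1 made up 23.3 to 74.6% of the Egln1 and Egln3 transcripts together in tumour lines and 81.0 to 92.0% in MSC. Hif1a itself, the regulated subunit, had 146, 451 and 609 CPM in tumour lines, against 536, 635 and 584 CPM in MSC (log2 change -0.41, SE 0.36, adjusted p = 0.499).

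Among the other targets, P4ha2, Higd1a and Adm fell and Ndrg1 rose. P4ha2 (chr11:54100924-54131668), a subunit of the enzyme that hydroxylates proline in collagen, had 34.5, 72.3 and 150 CPM in tumour lines, against 225, 362 and 301 CPM in MSC. The groups were apart, and the log2 change was -1.90 (SE 0.37, adjusted p = 0.00861), or 3.72-fold lower. Higd1a (chr9:121848557-121857796), a mitochondrial inner membrane protein induced by hypoxia, had 27.3, 36.9 and 68.8 CPM in tumour lines, against 106, 157 and 102 CPM in MSC. These groups were also apart, with a log2 change of -1.51 (SE 0.27, adjusted p = 0.00492), or 2.86-fold lower, though 22.5% of Higd1a exon bases are overlapped by a gene on the opposite strand and the strand setting of the counting is not given. Adm (chr7:110627657-110629820), the vasodilator peptide adrenomedullin, had 0.210, 2.91 and 22.0 CPM in tumour lines, against 98.1, 84.4 and 43.9 CPM in MSC. It was lower in every tumour line, with the largest fitted drop of the 38 members at a log2 change of -3.51 (SE 0.96, adjusted p = 0.0403), or 11.4-fold lower.

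Ndrg1 (chr15:66929318-66969641), a stress-responsive gene of growth arrest and differentiation, had 37.0, 89.0 and 138 CPM in tumour lines, against 39.3, 41.3 and 27.5 CPM in MSC. All tumour lines but TL1 2b were above the MSC range, and the log2 change was 1.38 (SE 0.33, adjusted p = 0.0233), or 2.61-fold higher. The acid-balance enzyme Car9, a carbonic anhydrase widely used as a marker of HIF activity, had 0.526, 6.76 and 101 CPM in tumour lines, against 1.34, 2.58 and 1.14 CPM in MSC. The groups overlapped and the log2 change of 3.40 (SE 1.58) had an adjusted p of 0.192. The mitophagy receptors Bnip3 and Bnip3l missed the threshold, with log2 changes of -1.73 (SE 0.56, adjusted p = 0.0698) and -0.70 (SE 0.24, adjusted p = 0.0908). With line number as a block in the edgeR fit Bnip3 was called (log2 change -2.07, adjusted p = 0.0148), and so was P4ha1 (log2 change -1.08, adjusted p = 0.0458). Here too the block matches MSC by number without a shown pairing. The remaining targets (Vegfa, P4ha1, Ddit4 and Ankrd37) had log2 changes from -0.97 to 0.07 and did not pass without the block.

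**Figure D3:**
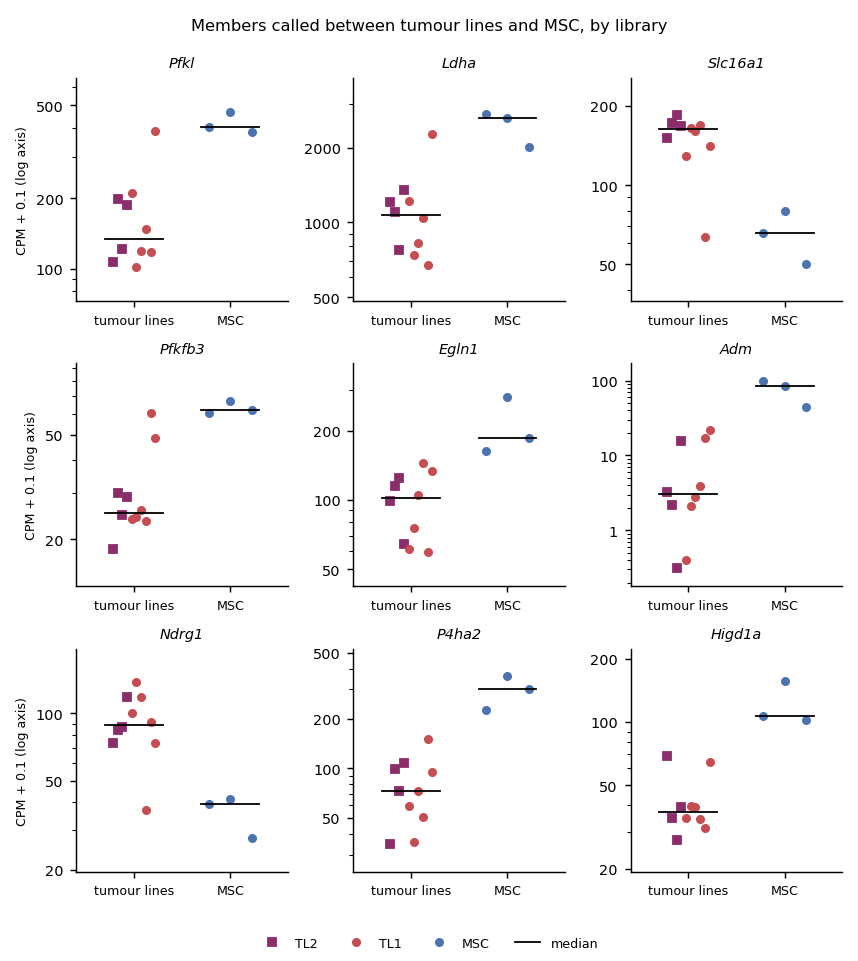
CPM (+ 0.1, log axis) of the 9 members called between tumour lines (left, TL2 squares and TL1 circles) and MSC (right), each point 1 library and the black line the median. P4ha2, Higd1a, Adm and Egln1 are lower in every tumour line than in any MSC library; for the other 5 members a single tumour line lies within or at the edge of the MSC range.

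P4ha2 and Higd1a kept an adjusted p under 0.05 when any of the 13 libraries was left out and in all 9 other settings; the other 7 calls did not. Without MSC 1, 2 or 3 only 2, 3 and 2 members passed, and 4 passed without TL2 1. Leaving out TL1 2b, TL2 2a or TL2 2b left 5 members each. Slc16a1 was lost without MSC 1 or MSC 3 (adjusted p = 0.0751 to 0.102) and Ndrg1 without any MSC library (0.0633 to 0.149). Pfkl was lost without any MSC library, TL2 1, TL1 2b or TL2 2b (0.0515 to 0.130), and Egln1 without any MSC library, TL1 1b, TL2 1 or TL2 2a (0.0518 to 0.202). Pfkfb3 was lost without any of 7 libraries (0.0510 to 0.156), Adm without any of 9 (0.0503 to 0.154) and Ldha without any of 10 (0.0538 to 0.186). With the tumour lines summed per number, Pfkfb3 and Adm were lost (adjusted p = 0.0764 and 0.0795) and Tpi1 was called (0.0424). No fitted change of the 9 members turned its direction in these fits.

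Related genes outside the 38 members were counted in fixed lists. Of 26 other hypoxia targets tested, 5 fell and 0 rose (median log2 change -0.73). Lox, the enzyme that crosslinks collagen, averaged 546 ± 367 CPM in 10 tumour lines and 3801 ± 726 CPM in 3 MSC libraries (SD; log2 change -2.77, SE 0.47, adjusted p = 0.00415). Plod2, a collagen lysyl hydroxylase, averaged 108 ± 70.1 CPM in tumour lines and 324 ± 95.6 CPM in MSC (log2 change -1.64, adjusted p = 0.0310). Tmem45a, Ppp1r3c and Kdm3a made up the rest, with log2 changes of -3.85, -4.14 and -0.76. Kdm3a, the smallest, is named to complete the count.

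Of 21 tested carbohydrate enzymes and transporters outside the members, 1 rose and 3 fell. The muscle enolase Eno3 rose, at 359 ± 223 CPM in 10 tumour lines and 47.1 ± 24.8 CPM in 3 MSC libraries (log2 change 2.92, SE 0.73, adjusted p = 0.0292). Bsg, the chaperone that brings MCT1 and MCT4 to the cell surface, fell while Slc16a1 rose, at 667 ± 107 CPM in tumour lines and 1130 ± 274 CPM in MSC (log2 change -0.74, SE 0.18, adjusted p = 0.0272). Gys1, muscle glycogen synthase, fell by 1.59 on the log2 scale and Slc16a7, a further monocarboxylate transporter with 91 counts over the MSC libraries, by 4.06. None of the 8 pentose phosphate genes, the 29 genes of pyruvate oxidation and the citrate cycle or the 9 tested HIF subunits and regulators passed the test in edgeR. Of them, 0, 8 and 4 had an unadjusted p under 0.05, against 3507 of all 13262 genes.

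The second comparison set the 2 generations of tumour lines against each other. No member passed between TL2 and TL1, and 0 of 38 had an unadjusted p under 0.05 in edgeR, against 246 of the 13262 genes. Over all genes tested 0% were called by edgeR and 3 genes by DESeq2, none of them a member. The fitted changes ran from -1.15 for Ldhb (SE 0.86) to 0.97 for Aldoc (SE 1.63), and no member's libraries were apart, which held for 0.136% of all genes. With standard errors of 0.21 for Pkm to 1.63 for Aldoc, differences of this order were not detectable for the most variable members, and the generations are not shown to be alike.

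The tumour lines were also compared by the number in their labels. Of the 38 members, 2 differed among numbers 1, 2 and 3 with generation in the fit (edgeR, adjusted p under 0.05), against 2.09% of 12948 genes, and 15 members had an unadjusted p under 0.05 against 2996 of all genes. Aldoc (chr11:78323073-78327781) had 84.3, 10.2 and 53.9 CPM in the lines TL2 3, TL1 3a and TL1 3b, whereas the 7 lines of numbers 1 and 2 had 0.299 to 0.788 CPM (adjusted p = 0.00296). Aldoc supplied 1.02 to 5.70% of aldolase transcripts per kilobase of exon in the lines of number 3 and at most 0.100% in the other lines. Car9 (chr4:43507026-43513729) had 36.8, 26.4 and 101 CPM in TL2 3, TL1 3a and TL1 3b and 0.526 to 7.67 CPM in the other 7 lines (adjusted p = 0.0450).

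Slc2a1 and Pdk1 fell just short, with adjusted p of 0.0502 and 0.0533. Slc2a1 had 249, 137 and 356 CPM in TL2 3, TL1 3a and TL1 3b and 76.9 to 105 CPM in the other lines, and Pdk1 had 117, 75.2 and 149 CPM in these lines and 26.4 to 61.9 CPM in the others. For both genes every line of number 3 was above every other tumour line, but the share of all genes with this separation was not counted. Aldoc kept its call when any of the 10 libraries was left out, whereas Car9 kept it only without TL1 3a (adjusted p = 0.0557 to 0.114 in the 9 fits that lost it). Slc2a1 and Pdk1 were called without TL1 3a. Of 6 other settings, Aldoc was called in 6, Car9 in 5, Slc2a1 in 4 and Pdk1 in 2. Among genes outside the members, 2 of 25 other hypoxia targets differed among the numbers, Loxl2 (adjusted p = 0.0257) and Mxi1 (adjusted p = 0.04999), and edgeR called 0 genes of the other 4 pathway lists, in which 6 carbohydrate, 1 pentose phosphate, 9 pyruvate and citrate cycle and 3 HIF regulator genes had an unadjusted p under 0.05.

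**Figure D4:**
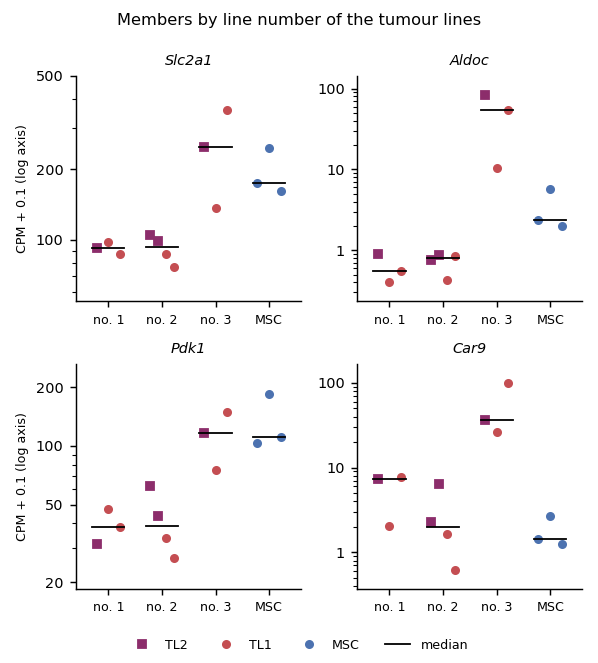
CPM (+ 0.1, log axis) of Slc2a1, Aldoc, Pdk1 and Car9 in the tumour lines of number 1, 2 and 3 and in MSC, each point 1 library (TL2 squares, TL1 circles) and the black line the median. The 3 lines of number 3 lie above the other 7 tumour lines in all 4 panels. How many of all genes show this order was not counted.

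TL1 3b set many of these ranges. It was the highest of the 10 tumour lines for 19 of the 38 members and the lowest for 0. The 17 glycolytic enzymes among the members took 2.04% of its counts, the largest share of the 17 libraries. TL1 3a, which carries the same number and generation, was the highest for 5 members and the lowest for 9, and these enzymes took 0.945% of its counts, the smallest share. How many of all genes were highest or lowest in either line was not counted, so these extremes are not shown to be particular to the members. Without TL1 3b, 13 members were called between tumour lines and MSC in place of 9, among them Gpi1, Aldoa, Tpi1 and Bnip3. With every library in, 1147 of 13262 genes were called. That number also moved when 1 library was left out, so the gain is not shown to be particular to the members.

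The last comparison set clones labelled p53 KO against clones labelled p53 Mut. Trp53 had 80.8 and 89.6 CPM in KO clones, against 358 and 280 CPM in Mut clones (log2 change -1.89, SE 0.23, adjusted p = 0.00259). Of the 38 members, 2 rose in KO clones and 4 fell, while over all 12238 genes 14.2% rose and 12% fell. The share of members called, 15.8%, was below the 26.1% of all genes. Libraries of the clones were apart for 22 members, 11 higher and 11 lower, against 34.6% of all genes higher and 35.1% lower. Scaling by library totals alone shifted all log2 changes by a median of -0.13.

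Egln1 rose, at 252 and 214 CPM in KO clones, against 81.5 and 70.7 CPM in Mut clones. The log2 change was 1.63 (SE 0.21, adjusted p = 0.00370), or 3.09-fold higher, and the call held with any of the 4 libraries left out and in the 7 other settings. Of the Egln1 and Egln3 transcripts together, per kilobase of exon, Egln1 made up 74.1 to 79.2% in KO clones and 27.7 to 48.8% in Mut clones. Egln2 was not part of this share. Egln3 had 48.9 and 55.4 CPM in KO clones, against 63.5 and 136 CPM in Mut clones (edgeR adjusted p = 0.115). Slc2a3 (chr6:122727809-122802363) rose at a low level, with 3.86 and 14.6 CPM in KO clones, against 0.797 and 0.557 CPM in Mut clones (log2 change 3.76, SE 0.78, adjusted p = 0.0168). The KO clones differed widely from each other, and the call was lost without Mut clone 1, Mut clone 2 or KO clone 2 (log2 change 2.51 to 4.04, adjusted p = 0.0874 to 0.120).

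Car9 fell, with 7.64 and 5.10 CPM in KO clones, against 34.7 and 27.6 CPM in Mut clones. The log2 change was -2.27 (SE 0.33, adjusted p = 0.00510), or 4.84-fold lower, and the call held with any of the 4 libraries left out. Aldoc fell too, with 2.28 and 0.797 CPM in KO clones, against 14.6 and 13.4 CPM in Mut clones (log2 change -3.16, SE 0.56, adjusted p = 0.00964). The Aldoc call was lost without either Mut clone (adjusted p = 0.0602 to 0.0637).

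Slc16a1 fell in KO clones, with 95.0 and 115 CPM, against 222 and 278 CPM in Mut clones (log2 change -1.23, SE 0.22, adjusted p = 0.0109). Pfkfb3 fell as well, with 13.5 and 12.4 CPM in KO clones, against 29.4 and 41.6 CPM in Mut clones (log2 change -1.43, SE 0.28, adjusted p = 0.0138). In each of these 6 members the KO clones lay wholly on one side of the Mut clones, as in 69.7% of all genes tested. Members called from 2 against 2 libraries are nearly bound to be apart, so this adds nothing to the calls. Both calls were lost without Mut clone 2, KO clone 1 or KO clone 2, at an adjusted p of 0.0512 to 0.0774 for Slc16a1 and of 0.0663 to 0.0849 for Pfkfb3. Gapdh, at 2444 and 2858 CPM in KO clones, against 1792 and 1271 CPM in Mut clones, came closest among the members not called (log2 change 0.81, SE 0.25, adjusted p = 0.0578). A fit of all 17 libraries kept only Slc2a3 and Egln1, and KO clone 2, the library with 4.14% Rn45s, left 3 members called when taken out.

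**Figure D5:**
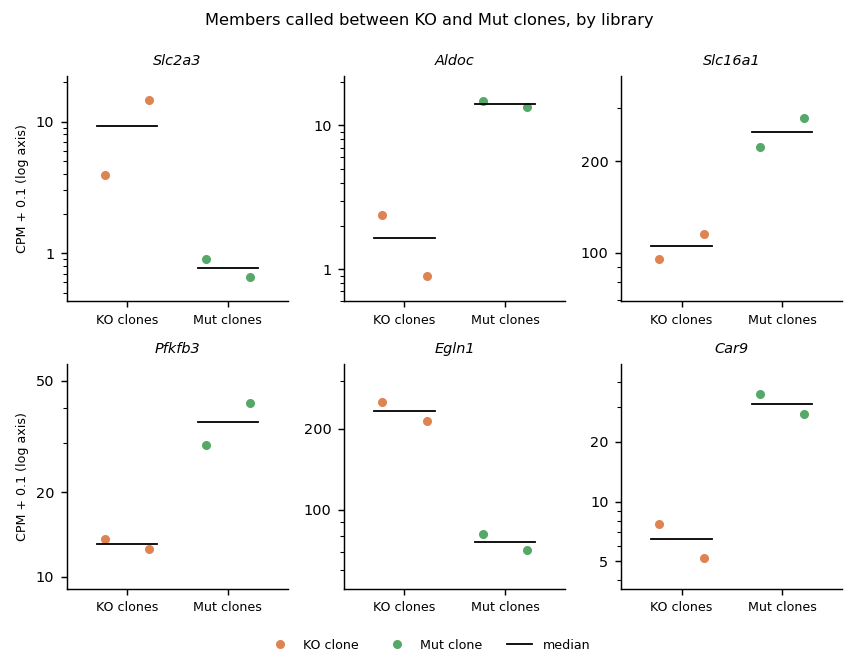
CPM (+ 0.1, log axis) of the 6 members called between KO clones (left) and Mut clones (right), each point 1 library and the black line the median. Slc2a3 and Egln1 are higher and Aldoc, Slc16a1, Pfkfb3 and Car9 lower in both KO clones than in both Mut clones. Of all genes tested, 69.7% had their clone libraries apart.

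Of 23 other hypoxia targets tested in the clones, 9 rose and 3 fell, a share of 52.2% against 26.1% of all genes. Edn1, the vasoconstrictor endothelin-1, averaged 51.6 ± 18.1 CPM in KO clones and 3.36 ± 0.544 CPM in Mut clones (SD, n = 2 each; log2 change 3.96, edgeR adjusted p = 9.5e-04). Car12, a membrane carbonic anhydrase like Car9, fell to 7 counts over the KO clones, against 1648 counts over the Mut clones (adjusted p = 6.1e-04), and Tmem45a had 144 counts in KO clones and 0 in Mut clones. Lox and Plod2, which fell in tumour lines against MSC, both rose in KO clones against Mut clones, by 1.75 and 1.13 on the log2 scale. Of 11 stromal markers tested in the clones, 3 rose (Pdgfrb, Cxcl12 and Itgb1) and 2 fell (Ly6a and Pdgfra), with 3 fitted changes above 0 and 8 below. Pdgfrb averaged 235 ± 29.1 CPM in KO clones and 5.91 ± 4.97 CPM in Mut clones, whereas Ly6a averaged 11.8 ± 2.31 CPM in KO clones and 39.3 ± 15.6 CPM in Mut clones; the part of these markers in the result was not tested.

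Of the 8 tested HIF subunits and regulators, Arnt2 and Cited2 rose in KO clones (log2 changes 2.51 and 0.82, adjusted p = 0.0441 and 0.0360) and none fell. Of 16 tested carbohydrate genes outside the members, the muscle isoenzymes Eno3 and Pgam2 rose, by 3.64 and 4.93 on the log2 scale, while Pck2 and Gpd2 fell. Eno3 averaged 586 ± 60.7 CPM in KO clones and 47.5 ± 23.3 CPM in Mut clones (SD, n = 2 each; edgeR adjusted p = 0.00215). In pyruvate oxidation and the citrate cycle Dld fell and Ogdh rose out of 29 genes, and of 8 pentose phosphate genes Rpe fell.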

How the data were processed

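RNA-seq counts per gene were deposited by the authors for 17 libraries as whole reads, with no normalization. Per the labels' protocols, reads were single-end and 60 bases long. Per the submitters' processing notes, the tools were TopHat2 2.0.10 with cutadapt, HTSeq 0.6.1p1 and DESeq2 1.6.3, on the mm10 build. The strand setting and the treatment of multiply aligned reads are not given in the sources at hand; both can lower or blur the counts of genes with near-identical copies. Another 4 count columns matched no labelled sample and were not used.

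CPM (counts scaled to a common library size) were computed with TMM library sizes. Tests were edgeR 4.0.16 quasi-likelihood fits with TMM scaling and filterByExpr, Benjamini-Hochberg adjustment over all genes tested and a threshold of 0.05: 13 libraries for tumour lines (mean of TL1 and TL2) minus MSC and for TL2 minus TL1, the 4 clones for KO minus Mut, and the 10 tumour lines for a joint F-test of the line numbers. Counts were 12215025 to 15962341 per library, and the lowest chi-square per degree of freedom between libraries of a group was 30.5, so none was a repeat of another. The fits were tested on simulated data. Alternatives were DESeq2 1.42.0, limma-voom 3.58.1, other scalings, no filter, leaving out each library or Rn45s, line number as a replicate block, lines summed per number and a fit of all 17 libraries. In a pairing check, TL1 and TL2 libraries of the same number deviated together (r = 0.461, 0.375 and 0.509 for numbers 1, 2 and 3, over 13296 genes), so the numbers pair TL1 with TL2. The check did not pair the MSC, since not every correlation was over 0.1 (r = 0.0164, 0.0419 and 0.167 with TL1 and 0.224, -0.0308 and 0.192 with TL2).

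The members and the other gene lists were chosen with earlier results of these data known. All 38 members are accounted for; full values are given for members called in a comparison and for the most variable member of each role, and of other lists up to 4 called genes with the largest change are named per comparison; 1 such gene is not reported here. Of 130 listed genes outside the members, 3 were found under older symbols. Exon lengths, overlaps and 60-base windows came from GENCODE M21, and positions and promoters from RefSeq, both on GRCm38. An exon length joins all annotated exons of a gene, so shares per kilobase depend on the transcripts annotated.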

Additional observations from a re-analysis of the deposited data

Results flagged for a closer look

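In groups of 4 or 6 libraries, a library was singled out where its gap to the nearest other library of its group was large against the group's whole range, by Dixon's ratio at the 95% level. This held for 15 of the 76 combinations of member and group examined. The level of the test alone would give about 1 in 20 if the combinations were independent. They share libraries, and 11 of the flags fell on TL1 3b. The share of flags over all genes was not counted, so the number is not shown to be particular to the members.

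TL1 3b was far above the other first-generation lines for 11 members: Slc2a1 at 356 CPM, Aldoc at 53.9 CPM, Pgk1 at 3000.0 CPM, Ldha at 2269 CPM, Slc16a3 at 584 CPM, Pfkfb4 at 33.8 CPM, Egln3 at 326 CPM, Bnip3 at 254 CPM, Higd1a at 64.6 CPM, Ankrd37 at 8.14 CPM and Car9 at 101 CPM. TL1 3a was far below the others for Slc16a1, at 63.4 CPM, where the next line had 129 CPM. TL2 3 was far above the other second-generation lines for Slc2a1 at 249 CPM, Aldoc at 84.3 CPM and Car9 at 36.8 CPM, where the next lines had 105, 0.788 and 7.22 CPM.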

How the results depend on the processing

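For the called members and Trp53, no fitted change turned its direction in an alternative fit; the call was kept in 234 such values and lost in 73. Of the members not called, the sign differed in at least 1 alternative for 7 of 29 in tumour lines minus MSC, 30 of 38 in TL2 minus TL1 and 13 of 32 in KO minus Mut clones. For tumour lines minus MSC, 9 members and 1147 genes were called, against 14 members and 2208 genes with DESeq2, and 2 to 13 members and 304 to 1532 genes when 1 library was left out. With line number as a replicate block 12 members and 1686 genes were called, Pdk1, Bnip3 and P4ha1 in addition, and TL2 minus TL1 stayed at 0; the numbers do not pair the MSC. Summing the tumour lines per number called 8 members, without Pfkfb3 and Adm and with Tpi1. TL2 minus TL1 gave 0 genes, and 3 with DESeq2. For KO minus Mut clones, 6 members and 3200 genes were called, against 2 and 820 in a fit of all 17 libraries, and 2 to 8 members and 1347 to 1755 genes when 1 library was left out; a single remaining clone is then assumed to vary like the others. For line numbers, 2 members and 271 genes were called, against 13 and 1981 with DESeq2, 413 genes without the filter, and 1 to 4 members and 29 to 376 genes when 1 library was left out. Fewer libraries enter the fits that leave 1 out; the cause of the other differences was not tested. Values under 1 CPM rest on few reads: Aldoc in the 7 lines of numbers 1 and 2 (4 to 12 counts) and KO clone 2 (10), Adm in TL2 2b, TL1 1a and KO clone 1 (3, 4 and 12), Car9 in TL1 2b (7), Slc2a3 in the Mut clones (11 and 7) and Ankrd37 in 3 libraries.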

Other observations

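Myc, a transcription factor that binds the CACGTG element and is no member of these lists, was looked up after the values of Aldoc and Car9 were seen. It had 1042, 132 and 620 CPM in TL2 3, TL1 3a and TL1 3b and 94.9 to 232 CPM in the other 7 tumour lines, against 148 to 180 CPM in MSC. In the clones it had 137 and 136 CPM in KO clones, against 1762 and 1986 CPM in Mut clones. The promoter windows of Aldoc held 0 matches to ACGTG on either strand. The Car9 window held 1 CACGT, beginning 18 bases before the start, which is not part of a CACGTG palindrome. No test of a relation between Myc and the members was made.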
